A study of Eucalyptus camaldulensis with 12 samples.

Results

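The transcripts described here encode enzymes of carbon fixation and photorespiration in leaves of Eucalyptus camaldulensis, a tree native to Australia. They are 6 genes, taken as a list: 3 matches to the small subunit of Rubisco (RBCS), 2 matches to Rubisco activase (RCA) and 1 match to glycine decarboxylase P protein (GLDP2). Each gene was joined by its position to 1 of the 43180 transcripts predicted in the series, of which 2242 carried a gene identifier from the study's tables, and all 6 passed the filter on low counts in every comparison. The identifiers and positions are those of the draft genome of Eucalyptus grandis.

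The 12 libraries hold leaf RNA of seedlings from 3 populations, named Katherine, Mt Isa and Petford. In the S1 group, seedlings had been kept in pots at 30% of field capacity until the end of the treatment, and in the C1 group seedlings of the same age had been watered to field capacity until that same time. The S0 and C0 groups are leaves of those same seedlings before the treatment, S0 of the seedlings later stressed and C0 of the seedlings kept watered. Each library is a bulk of 10 seedlings (S1, S0) or 5 seedlings (C1, C0) of a population, so each group has 3 libraries, 1 per population, and the spread between them holds population differences as well as technical error. For Mt Isa, the source labels of the C1 and the S0 library contradict their titles and group labels, and the groups here follow the titles and group labels. Library totals ranged from 1726793 to 6951584 counts.

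Rubisco is the enzyme that binds carbon dioxide in the Calvin cycle. In land plants its small subunits are encoded by a family of nuclear genes, while the large subunit is encoded in the chloroplast. Rubisco activase is a chloroplast ATPase that frees Rubisco from inhibitory sugar phosphates. When Rubisco takes up oxygen in place of carbon dioxide, photorespiration recovers part of the carbon, and in mitochondria the glycine decarboxylase complex, of P, H, T and L proteins, breaks down glycine in that pathway. Small subunit transcripts are among the most abundant mRNAs of green leaves.

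The 3 small subunit transcripts were Eucgr.J01502 on scaffold 10 (19441651 to 19443594), Eucgr.K02223 on scaffold 11 (29494200 to 29495995) and Eucgr.B03013 on scaffold 2 (55086801 to 55088027). In the study's annotation the first pair matched Arabidopsis RBCS1A and Eucgr.B03013 matched RBCS3B. The activase transcripts were Eucgr.J02030 on scaffold 10 (26375692 to 26379838) and Eucgr.B02310 on scaffold 2 (44135555 to 44138749), and GLDP2 was Eucgr.C03047 on scaffold 3 (57434014 to 57440904). None of the 6 overlapped another predicted transcript. These spans hold introns and UTRs, and the spliced lengths were not available, so levels are compared between groups for each transcript and not between transcripts. Genes of the RBCS family are close copies of each other, and reads that map to several copies could have been split among them, so the values of single copies are uncertain to that extent.

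The 6 transcripts together took 0.604% ± 0.0697 of all counts in S1, 1.73% ± 0.567 in C1, 4.81% ± 1.27 in S0 and 4.56% ± 0.488 in C0 (SD, n = 3 libraries each). Eucgr.J01502 had more reads over the 12 libraries than any other transcript in the series, 678081 reads. Eucgr.J02030 ranked 3 and Eucgr.C03047 ranked 11 by reads, with no correction for length. The 3 small subunit transcripts alone took 0.266% ± 0.0739 of counts in S1, 1.17% ± 0.39 in C1, 3.22% ± 1.21 in S0 and 3.07% ± 0.559 in C0.

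**Figure D1:**
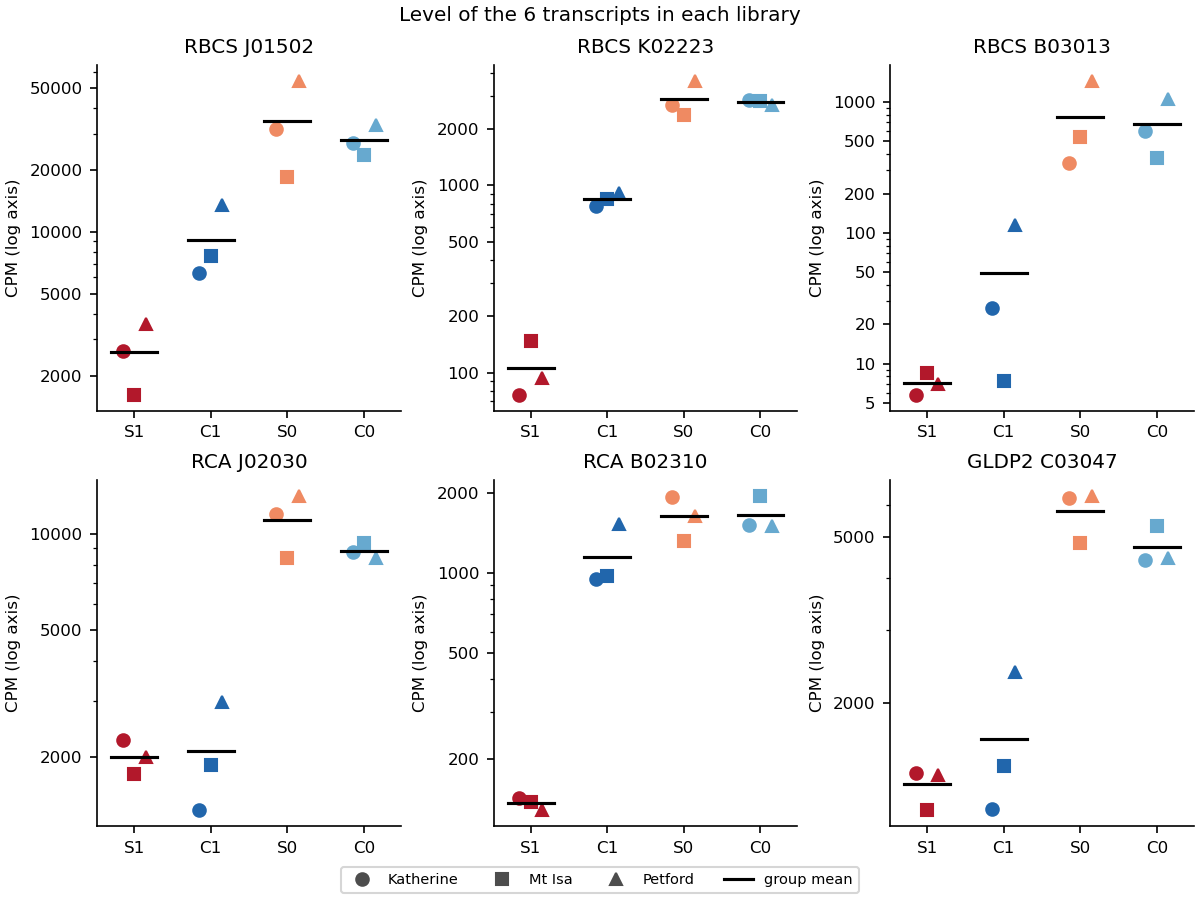
Level of the 6 transcripts in each of the 12 libraries, as scaled counts (CPM, log axis), by group, with the population as the marker shape and the group mean as a line. Every S1 and C1 library lies below every S0 and C0 library for each of 5 transcripts, and for the activase Eucgr.B02310 this holds of the S1 libraries, with the C1 Petford library at 1520 CPM among the libraries taken before the treatment. The share of all transcripts separated in this way was not counted.

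Levels are given as CPM scaled by TMM, in the order Katherine, Mt Isa and Petford. The abundant small subunit Eucgr.J01502 had 2630, 1610 and 3560 CPM in S1 libraries, against 6340, 7600 and 13500 CPM in C1 libraries. Before the treatment it had 31700, 18500 and 54000 CPM in S0 libraries and 27000, 23700 and 33000 CPM in C0 libraries. Leaves taken at the end thus held less of this transcript than leaves taken before, with or without stress, and least in stressed leaves, with no overlap between S1 and C1 or between either and the earlier groups. It was lower in S1 than in C1 by a log2 fold change of -1.92 ± 0.34 (SE), a level 3.8-fold lower, with an adjusted p of 0.00127 (from the quasi-likelihood F test of edgeR, adjusted by Benjamini-Hochberg, as are all adjusted p-values of single transcripts here unless another tool is named).

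Eucgr.K02223, the other RBCS1A match, had 75.7, 148 and 94 CPM in S1 libraries, against 774, 846 and 911 CPM in C1 libraries. It had 2700, 2380 and 3620 CPM in S0 and 2880, 2830 and 2690 CPM in C0. The 3 levels did not overlap: low in S1, middle in C1 and high before the treatment. The S1 minus C1 log2 fold change was -3.10 ± 0.26, or 8.6-fold lower, with an adjusted p of 8.12e-06.

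Eucgr.B03013, the RBCS3B match, was the least read of the family. It had 5.75, 8.48 and 7.05 CPM in S1 libraries, from 28, 22 and 46 reads, against 26.5, 7.43 and 114 CPM in C1 libraries, from 82, 16 and 378 reads. Before the treatment it had 341, 536 and 1450 CPM in S0 and 603, 373 and 1060 CPM in C0. The S1 and C1 groups overlapped, because the C1 Mt Isa library was as low as the S1 libraries, while the C1 Petford library was the highest of the 6. The S1 minus C1 log2 fold change of -2.95 ± 0.73 had an adjusted p of 0.00925, close to the threshold of 0.01. Without the C1 Petford library it was -1.43 with an adjusted p of 0.0421, without the C1 Katherine library -3.30 with an adjusted p of 0.0113, and leaving out any S1 library also ended the call. DESeq2 gave -2.90 and an adjusted p of 0.0158. The call was kept with the population as a block, at -2.55 (adjusted p = 0.000579), with edgeR's exact test (adjusted p = 0.000543), without the C1 Mt Isa library, at -3.47 (adjusted p = 0.00125), and with the other scalings, without the filter and with all 12 libraries in the fit. The sign was negative in each of these fits, and the call depended on the libraries and the tool.

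The 2 activase transcripts had different patterns. Eucgr.J02030, the more read of the pair, had 2250, 1770 and 1990 CPM in S1 libraries, against 1360, 1890 and 2970 CPM in C1 libraries, so the groups overlapped fully. It had 11500, 8370 and 13100 CPM in S0 and 8730, 9370 and 8390 CPM in C0. Its level was therefore low at the end in both stressed and watered leaves, with an S1 minus C1 log2 difference of -0.16 ± 0.26, a 95% interval of -0.74 to 0.42 and an adjusted p of 0.679. Without the C1 Petford library that difference was 0.16.

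Eucgr.B02310 had 143, 138 and 129 CPM in S1 libraries, against 945, 974 and 1520 CPM in C1 libraries. It had 1930, 1320 and 1640 CPM in S0 and 1510, 1940 and 1500 CPM in C0. This activase was lowest in the S1 libraries. The C1 Katherine and Mt Isa libraries lay below all 6 earlier libraries, and the C1 Petford library lay within their range. The S1 minus C1 log2 fold change was -3.18 ± 0.23, or 9.04-fold lower, with an adjusted p of 2.7e-06, and its value without any 1 library lay between -3.34 and -2.94.

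Eucgr.C03047, the GLDP2 match, carries the decarboxylating P protein. It had 1350, 1100 and 1340 CPM in S1 libraries, against 1110, 1410 and 2370 CPM in C1 libraries. It had 6220, 4860 and 6290 CPM in S0 and 4410, 5330 and 4470 CPM in C0. Like the abundant activase it was low at the end in both treatments, and S1 and C1 overlapped, with a log2 difference of -0.47 ± 0.26, a 95% interval of -1.05 to 0.11 and an adjusted p of 0.197.

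In all, 4 of the 6 transcripts were lower in S1 than in C1 at an adjusted p of 0.01, 3 small subunits and the activase Eucgr.B02310, and none was higher. Of the 40440 transcripts tested, 12.5% were called lower in this comparison. The median log2 fold change of the 6 was -2.44, against -0.04 over all transcripts tested. Eucgr.K02223, Eucgr.B03013 and Eucgr.B02310 were placed through the study's table of transcripts called between these same C1 and S1 libraries, so their direction here is not independent evidence, and neither is their direction in the difference of changes given further on, which holds this contrast. The comparisons S1 minus S0 and C1 minus C0 each hold one side of it. Of the 3 members placed without that table, 1 was called, Eucgr.J01502. These 3 were genes not placed through that table, and had variants whose alleles the study called different between S0 and S1. They are therefore a selected set too. Over all 6 members the count was 3 with DESeq2 and between 3 and 4 when a library was left out, with Eucgr.B03013 the transcript that lost its call. A bulk library cannot tell fewer cells of a type from less RNA per cell.

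**Figure D2:**
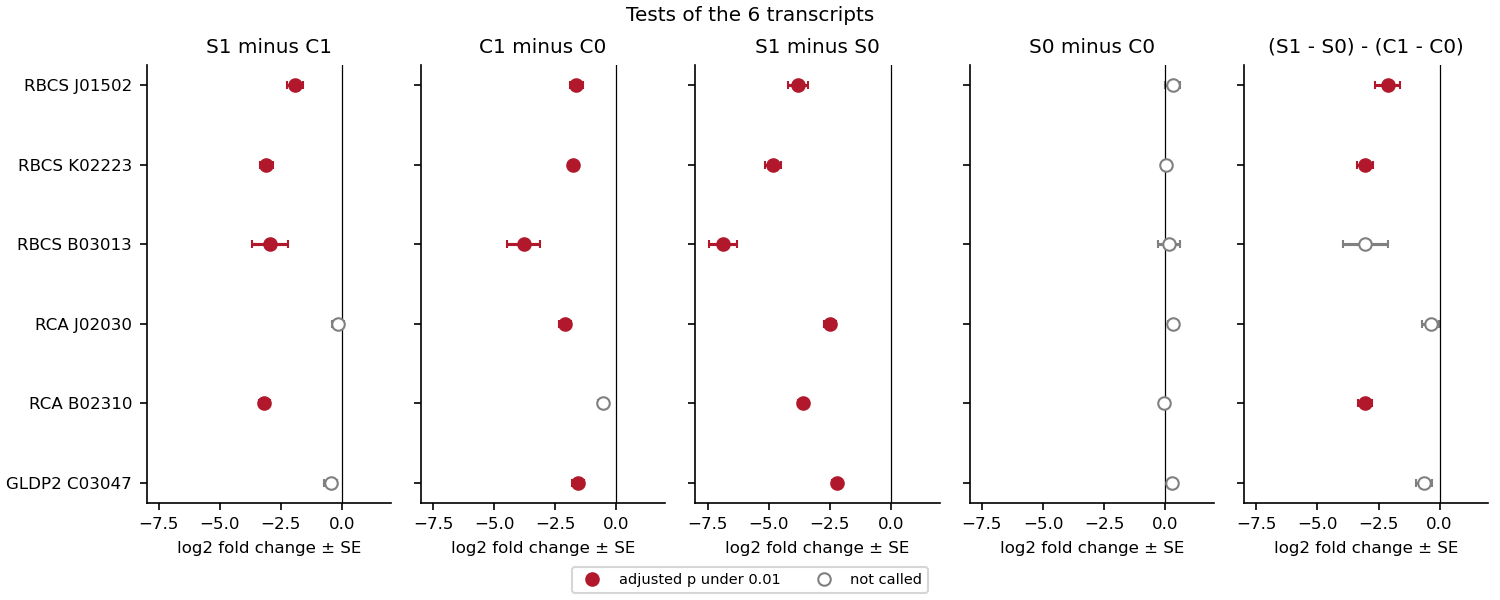
Log2 fold changes (horizontal axis) with SE for the 6 transcripts in 4 comparisons of 2 groups and in the difference of changes, from edgeR's quasi-likelihood test, with filled points for an adjusted p under 0.01. In S1 minus S0 all 6 lie below -2, in S0 minus C0 none is called, and the activase Eucgr.J02030 and GLDP2 are called in C1 minus C0 but not in S1 minus C1.

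In watered seedlings the C1 and C0 groups differ in the time of sampling and not in the treatment. Between the C0 and C1 samplings 5 of the 6 transcripts fell, against 3.90% of 36197 transcripts called lower, with a median log2 fold change of -1.70 for the 6 and 0.05 for all transcripts tested. The log2 fold change was -3.79 ± 0.67 for Eucgr.B03013 (adjusted p = 0.00232), -2.12 ± 0.25 for the abundant activase Eucgr.J02030 (adjusted p = 0.000155) and -1.76 ± 0.16 for Eucgr.K02223 (adjusted p = 3.22e-05). It was -1.64 ± 0.27 for Eucgr.J01502 (adjusted p = 0.00139) and -1.57 ± 0.25 for GLDP2 (adjusted p = 0.00115). In each population these 5 were lower in C1 than in C0, and the groups did not overlap. The share of all transcripts with such a separation was not counted, so this is a description. The activase Eucgr.B02310 had a log2 difference of -0.56 ± 0.21, with an adjusted p of 0.121 and an unadjusted p of 0.0191. Its log2 ratio between the Petford libraries was 0.02, and without the C1 Petford library it was called, with -0.80 and an adjusted p of 0.00447. With the population as a block it had -0.58 and an adjusted p of 0.0269.

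Single libraries held some of these calls. The count was 3 of 6 without the C0 Katherine library and also without the C0 Petford library, where Eucgr.J01502 had adjusted p-values of 0.0128 and 0.0176 and Eucgr.B03013 had 0.0145 and 0.0182. Eucgr.J01502 also lost its call without the C1 Mt Isa library (0.0128), Eucgr.B03013 without the C1 Katherine library (0.012) and GLDP2 without the C0 Mt Isa library (0.0118). The log2 fold changes in these fits lay between -3.87 and -1.49. With the population as a block, since C0 and C1 hold the same seedlings, 4264 transcripts of the series were called in either direction, against 2263 without the block, and the same 5 of the 6 were called.

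In stressed seedlings all 6 transcripts fell between the S0 and S1 samplings, against 10.3% of 40244 transcripts called lower. The median log2 fold change of the 6 was -3.70, against 0.02 over all transcripts tested. Of the small subunits, Eucgr.B03013 had a log2 fold change of -6.86 ± 0.58, a level 116-fold lower in S1 than in S0 (adjusted p = 5.48e-06). Eucgr.K02223 had -4.81 ± 0.33, or 28-fold lower (adjusted p = 1.23e-06), and Eucgr.J01502 -3.80 ± 0.42, or 13.9-fold lower (adjusted p = 3.84e-05). The activase Eucgr.B02310 had -3.60 ± 0.21, or 12.1-fold lower (adjusted p = 5.46e-07), the activase Eucgr.J02030 -2.49 ± 0.23 (adjusted p = 1.01e-05) and GLDP2 -2.22 ± 0.20 (adjusted p = 8.39e-06). Every population had the same direction for each of the 6, and the share of all transcripts with the same direction in each population was not counted. All 6 calls held under each alternative tried and without any 1 library. The population block raised the number of transcripts called in the series to 11872, against 7722 without it, and kept the 6. Scaled by library totals alone, 63.2% of the calls of the series between C1 and C0 and 58.5% of those between S1 and S0 were higher, against 37.6% and 46.1% with TMM, and the 5 and the 6 calls here were still made.

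Before the treatment, the seedlings later stressed and those kept watered did not differ detectably in these transcripts. None of the 6 was called between S0 and C0, against 0.191% of 36048 transcripts called in either direction, and none had an unadjusted p under 0.05. DESeq2 and edgeR's exact test also called none of the 6. The log2 differences lay between -0.03 (Eucgr.B02310) and 0.30 (Eucgr.J01502), and their 95% intervals between -0.79 and 1.14, both for Eucgr.B03013. The intervals leave room for a change of up to 0.66 in the activase Eucgr.J02030 and 0.91 in Eucgr.J01502. In S0 the Petford library was the highest for 5 of the 6 transcripts.

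The change in stressed seedlings was then set against the change in watered seedlings, as (S1 - S0) - (C1 - C0), over all 12 libraries. The difference was called below 0 for 3 of the 6 transcripts, beside 6.68% of 43146 transcripts called lower. This difference holds the S1 minus C1 contrast, through which Eucgr.K02223, Eucgr.B03013 and Eucgr.B02310 had been placed, so nothing is read from that count, and the values of these 3 are a description. Of the other 3 members, themselves a selected set as given above, 1 was called, Eucgr.J01502. Eucgr.K02223 had a difference of -3.05 ± 0.32 on the log2 scale (adjusted p = 1.8e-06), the activase Eucgr.B02310 -3.05 ± 0.30 (adjusted p = 8.3e-07) and Eucgr.J01502 -2.13 ± 0.50 (adjusted p = 0.00498). For Eucgr.J01502 the call was lost without the Katherine libraries, at -2.47 with an adjusted p of 0.0385. Eucgr.B03013 had -3.04 ± 0.93 with an adjusted p of 0.0297, and with the population as a block -2.55 with an adjusted p of 0.000395. For the activase Eucgr.J02030 the difference was -0.37 ± 0.34, with a 95% interval of -1.08 to 0.34 and an adjusted p of 0.539, and for GLDP2 it was -0.65 ± 0.33, with an interval of -1.34 to 0.03 and an adjusted p of 0.199. Without the Petford libraries the value for Eucgr.J02030 was 0.17. Leaving out the Mt Isa library of C1, whose labels conflict, 4 of the 6 were called in each of S1 minus C1 and C1 minus C0, and leaving out that of S0, 6 were called in S1 minus S0 and 0 in S0 minus C0. Without the Mt Isa libraries 3 were called in the difference of changes. The S1 minus C1, S1 minus S0 and C1 minus C0 comparisons share libraries with this one and with each other, so their values are not independent.

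Ratios of 2 transcripts within a library do not depend on the library's total, and their change does not depend on transcript length. They were compared as log2 ratios of reads, with 1 read added to each count, by exact permutation tests. With 3 libraries against 3 such an exact test cannot go below p = 0.1, and over the 15 permutation tests the smallest Benjamini-Hochberg adjusted value was 0.136, so none could pass 0.05. Eucgr.K02223, Eucgr.B03013 and Eucgr.B02310 were placed through the study's C1 against S1 calls, and the other members without them. The S1 minus C1 ratios that hold any of the former were partly fixed by that choice and are a description.

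**Figure D3:**
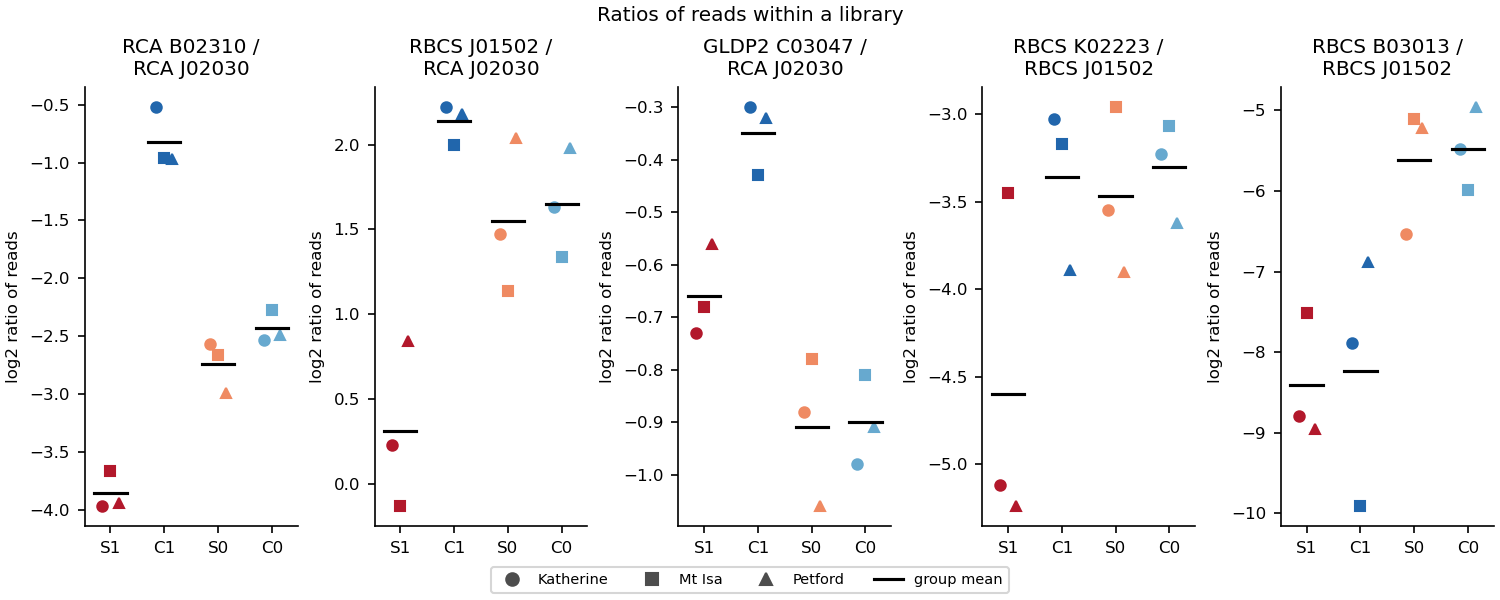
Log2 ratios of reads of 2 transcripts in the same library (vertical axis, log2 scale), by group, with the population as the marker shape and the group mean as a line. The ratio of the 2 activases is lowest in S1 and highest in C1, while the ratio of the RBCS3B match to the abundant small subunit is as low in C1 as in S1.

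The ratio of the 2 activases was below its earlier values in stressed leaves at the end and above them in watered leaves. The log2 ratio of Eucgr.B02310 to Eucgr.J02030 was -3.97, -3.67 and -3.94 in S1 libraries and -0.52, -0.96 and -0.97 in C1 libraries. It was -2.57, -2.66 and -2.99 in S0 and -2.53, -2.27 and -2.49 in C0. The S1 and C1 values stood on either side of the earlier ones with no overlap, a difference of 8.26-fold between S1 and C1 (exact p = 0.1, two-sided). Since Eucgr.B02310 was placed through the C1 against S1 calls and Eucgr.J02030 was not, this difference is not independent evidence of a divergence. As a share of the reads of both activases, Eucgr.B02310 had 6.44% ± 0.707 in S1, 36.3% ± 4.11 in C1, 13.1% ± 1.7 in S0 and 15.7% ± 1.27 in C0 (SD, n = 3).

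The ratio of the abundant small subunit to the abundant activase differed between treatments in the same order. The log2 ratio of Eucgr.J01502 to Eucgr.J02030 was 0.23, -0.13 and 0.84 in S1 libraries, against 2.22, 2.0 and 2.18 in C1 libraries, with no overlap (3.54-fold, exact p = 0.1, two-sided). Its means were 1.55 in S0 and 1.65 in C0, so it was lower at the end under stress and higher at the end with water. The ratio of GLDP2 to the activase Eucgr.J02030 had the narrowest range of group means of the 5 ratios, with mean log2 ratios of -0.66 in S1, -0.35 in C1, -0.91 in S0 and -0.90 in C0. Even so, the S1 and C1 libraries did not overlap in this ratio (difference -0.31, exact p = 0.1, two-sided).

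Within the small subunit family, reads of the RBCS3B match were fewer relative to Eucgr.J01502 at the end than before in both treatments. The log2 ratio of Eucgr.B03013 to Eucgr.J01502 was lower in S1 than in S0 by a difference of -2.79, and lower in C1 than in C0 by -2.75, both with no overlap between the groups and an exact p of 0.1 (two-sided). Between S1 and C1 the same ratio differed by -0.19 (exact p = 1.0, two-sided), and that sign changed without the Katherine or the Petford libraries. The ratio of Eucgr.K02223 to Eucgr.J01502 overlapped between groups in all comparisons, with -5.12, -3.45 and -5.24 in S1 libraries and -3.03, -3.17 and -3.89 in C1 libraries (exact p = 0.2, two-sided).

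Populations were compared over the 4 groups with the group as a term. The fit treated the 4 libraries of a population as independent. C0 and C1 of a population are the same seedlings, and so are S0 and S1, so the p-values of these comparisons can be too small. Petford had the highest level of Eucgr.J01502 in every group, and Mt Isa was lower than Petford by a log2 fold change of -0.99 ± 0.17 (adjusted p = 0.00101). Katherine minus Petford was -0.64 ± 0.17 for this transcript, with an adjusted p of 0.0607. Eucgr.B03013 was lower in Mt Isa than in Petford by -1.66 ± 0.31 (adjusted p = 0.00238) and lower in Katherine than in Petford by -1.44 ± 0.30 (adjusted p = 0.00878). The counts of members called were 0 of 6 between Katherine and Mt Isa, 1 of 6 between Katherine and Petford and 2 of 6 between Mt Isa and Petford, against 0.464%, 0.447% and 0.661% of 43146 transcripts in either direction. None of the 6 had an unadjusted p under 0.05 between Katherine and Mt Isa, and DESeq2 called none there.

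These population calls were not stable. DESeq2 gave Eucgr.B03013 adjusted p-values of 0.537 for Katherine minus Petford and 0.295 for Mt Isa minus Petford, and without the C0 libraries they were 0.0208 and 0.0229 in edgeR. With RLE scaling the first was 0.011. For Eucgr.B03013 the call between Katherine and Petford was also lost without the S0 libraries (0.0614). For Eucgr.J01502 the Mt Isa minus Petford difference was -0.77 without the S0 libraries, with an adjusted p of 0.0502, and -0.94 without the S1 libraries, with an adjusted p of 0.0121. The activases, GLDP2 and Eucgr.K02223 had differences between -0.34 and 0.07 among the populations and were not called.

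Other genes of the pathways were taken as a list of 20 genes named in the study's tables, on 19 transcripts, since 2 genes of glycine cleavage H protein shared one. In the order Rubisco assembly and activation, Calvin cycle and photorespiration they made up 3, 7 and 9 transcripts. The list is not complete, and leaves out the chloroplast fructose bisphosphatase HCEF1 (Eucgr.B02758), so its counts hold for the listed genes. Between S1 and C1, 7 of the 19 were called lower and 4 higher, against 12.5% and 9.81% of all transcripts, with a median log2 fold change of -0.19. In watered seedlings 16 fell and 1 rose between C0 and C1, against 3.90% and 2.35%, with a median of -1.57. In stressed seedlings 14 fell and 1 rose between S0 and S1, against 10.3% and 8.85%, with a median of -1.83. In the difference of changes 6 of the 19 were lower and 3 higher, beside 6.68% and 4.04%. CP12-1, RbcX and GLDP1 were placed through the study's table of transcripts called between C1 and S1, a contrast that this difference holds. Of the 16 other transcripts 6 were lower and 2 higher in S1 minus C1, and 5 lower and 1 higher in the difference of changes. These 16 are not a free sample either. They were genes not placed through those calls, with variants whose alleles the study called different between S0 and S1. With the population as a block, which pairs the samplings of the same seedlings, 16 fell and 2 rose in watered seedlings, and 15 fell and 2 rose in stressed seedlings. The added calls were RbcX in watered seedlings, with 1.67 (adjusted p = 0.00301), and in stressed seedlings CP12-1, with -0.85 (adjusted p = 3.61e-06), and GLYR1, with 0.71 (adjusted p = 0.000126). In the difference of changes the block gave 7 lower and 3 higher. There it was 1 term per population, shared by stressed and watered seedlings, and did not pair the samplings of the same seedlings. Without the Katherine libraries that comparison had 2 lower and 2 higher, and without the Petford libraries 3 lower and 2 higher. Between S0 and C0 none of the 19 was called and 1 had an unadjusted p under 0.05.

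**Figure D4:**
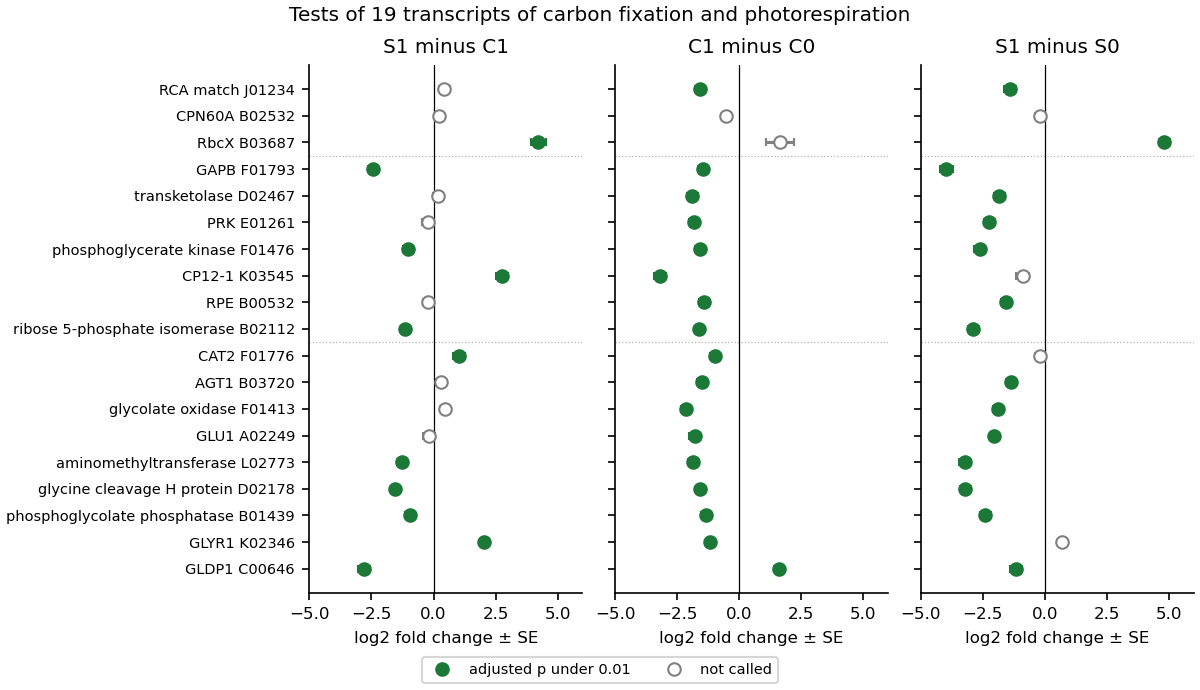
Log2 fold changes (horizontal axis) with SE for 19 transcripts of carbon fixation and photorespiration in 3 comparisons, from edgeR's quasi-likelihood test, with filled points for an adjusted p under 0.01 and dotted lines between Rubisco assembly and activation, the Calvin cycle and photorespiration. In C1 minus C0 16 of the 19 are called below 0, while in S1 minus C1 7 are called below 0 and 4 above.

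Of the Calvin cycle transcripts, GAPB (Eucgr.F01793), a chloroplast glyceraldehyde phosphate dehydrogenase subunit, was lower in S1 than in C1 by -2.43 ± 0.21 (adjusted p = 8.48e-06), and phosphoglycerate kinase (Eucgr.F01476) by -1.01 ± 0.20 (adjusted p = 0.003). The call of Eucgr.F01476 was lost without the C1 Mt Isa library (0.0103) and without any S1 library. CP12-1 (Eucgr.K03545), a small chloroplast protein that binds GAPDH and phosphoribulokinase into an inactive complex, was higher in S1 by 2.76 ± 0.26 (adjusted p = 1.46e-05), while in watered seedlings it fell between C0 and C1, with -3.20 ± 0.23 (adjusted p = 6.24e-06). Phosphoribulokinase (PRK, Eucgr.E01261) had -0.24 ± 0.21 and transketolase (Eucgr.D02467) 0.17 ± 0.21 between S1 and C1, neither called, and both fell over time in watered seedlings, with -1.82 ± 0.20 for PRK and -1.89 ± 0.21 for transketolase.

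Of the photorespiration transcripts, catalase 2 (CAT2, Eucgr.F01776), which breaks down the hydrogen peroxide made by glycolate oxidase, was higher in S1 than in C1 by 1.03 ± 0.24 (adjusted p = 0.00625). That call was lost without the C1 Katherine, C1 Mt Isa, S1 Mt Isa or S1 Petford library, with values of 0.82, 0.99, 0.87 and 1.02. Of the 9 transcripts of this group, 4 were lower in S1 than in C1 and 2 higher. Those not among the 10 most read were chosen for the text after their values were seen. Of the complex to which GLDP2 belongs, the H protein (Eucgr.D02178) was lower by -1.55 ± 0.16 (adjusted p = 3.29e-05) and the aminomethyltransferase, or T protein (Eucgr.L02773), by -1.28 ± 0.21 (adjusted p = 0.00068). The transcript of Eucgr.L02773 overlapped 1 other predicted transcript, so reads could be shared between them. Phosphoglycolate phosphatase (Eucgr.B01439), which acts at the entry of the pathway, was lower by -0.94 ± 0.19 (adjusted p = 0.00248), a call lost without the S1 Katherine or the S1 Petford library (0.0118 and 0.0144). The glyoxylate reductase match GLYR1 (Eucgr.K02346) was higher by 2.05 ± 0.18 (adjusted p = 1.05e-05). Glycolate oxidase (Eucgr.F01413) had 0.46 ± 0.20, the aminotransferase AGT1 (Eucgr.B03720) 0.31 ± 0.21 and glutamate synthase GLU1 (Eucgr.A02249) -0.19 ± 0.23, none called. A further activase match (Eucgr.J01234) had 1950, 1370 and 1610 CPM in S1 libraries, against 898, 1010 and 1460 CPM in C1 libraries. Its S1 minus C1 log2 difference was 0.44 ± 0.22 (adjusted p = 0.154), and it fell over time, with -1.40 ± 0.23 in stressed and -1.57 ± 0.21 in watered seedlings.

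A pair of further genes bear directly on the members and were chosen after their values were seen. GLDP1 (Eucgr.C00646), the other match to the P protein, had 24.2, 15 and 29.3 CPM in S1 libraries, against 140, 156 and 160 CPM in C1 libraries. It had 66.2, 40.4 and 46.4 CPM in S0 and 53.3, 44.4 and 50.2 CPM in C0. In watered seedlings GLDP1 thus rose between C0 and C1, by 1.59 ± 0.17 (adjusted p = 6.17e-05), where GLDP2 fell by 1.57, and in stressed seedlings both fell between S0 and S1, with -1.17 ± 0.25 for GLDP1 (adjusted p = 0.00438). The last call was lost without the S0 Katherine, S0 Petford, S1 Katherine or S1 Mt Isa library, with adjusted p-values between 0.012 and 0.0255. RbcX (Eucgr.B03687), a Rubisco assembly chaperone, had 151 to 221 CPM in S1 libraries, against 5.82, 7.43 and 13.9 CPM in C1 libraries, a log2 fold change of 4.23 ± 0.30 (adjusted p = 2.6e-06). In S0 it had 7.79, 6.26 and 5.51 CPM, so it was high in the S1 libraries alone. Since CP12-1, GLDP1 and RbcX were placed through the table of transcripts called between C1 and S1, their direction in S1 minus C1 and in the difference of changes is not independent evidence.

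Across the 12 libraries, the level of each member as log2 CPM was compared with 2032 other transcripts that had a gene identifier, an Arabidopsis match and at least 100 reads. These correlations are across libraries that share 4 groups and are given as a description. The 2 transcripts most like the activase Eucgr.J02030 were PRK (Eucgr.E01261, Pearson's r = 0.997) and the chloroplast ATP synthase gamma subunit ATPC1 (Eucgr.E04053, 0.994). PRK was also the most like GLDP2 (0.992), followed by a match to an unknown protein (Eucgr.D01676, 0.992). The activase Eucgr.B02310 was most like an extensin-like protein (Eucgr.C02759, 0.994) and the glycosyl hydrolase GH9C2 (Eucgr.E00858, 0.991).

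Eucgr.K02223 was most like a pterin dehydratase match (Eucgr.A02949, 0.996) and HCEF1, a chloroplast fructose bisphosphatase (Eucgr.B02758, 0.994). Eucgr.J01502 was most like nucleoside diphosphate kinase 2 (Eucgr.K02753, 0.984) and the cytochrome P450 CYP706A4 (Eucgr.D00200, 0.984). Eucgr.B03013 was most like a hydroxyproline-rich glycoprotein (Eucgr.E00068, 0.979) and the copper/zinc superoxide dismutase CSD2 (Eucgr.B03930, 0.978). Among the members themselves, r was highest between Eucgr.J02030 and GLDP2 (0.991) and lowest between the 2 activases (0.687).

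Markers of leaf cell types also differed between some of the groups, in differing directions, and their part in these results was not tested. The 5 markers of photosynthetic cells, light-harvesting proteins and PSBQ, had reads in every group, and their summed level was 5610 to 6550 CPM in S1, 8710 to 11900 in C1, 22800 to 41700 in S0 and 24600 to 26600 in C0. LHB1B1 (Eucgr.E02381) made up most of that sum, with mean levels of 4710 CPM in S1 and 6800 CPM in C1. It was not called between S1 and C1, at -0.63 ± 0.20 (adjusted p = 0.0304). Of the 5 photosynthetic markers, 3 were lower in S1 than in C1, 5 fell in watered and 5 in stressed seedlings. Of all transcripts tested, 12.5%, 3.90% and 10.3% were called lower in these comparisons. The 2 xylem markers were both higher in S1 than in C1, with a summed level of 324 to 376 CPM in S1, 24.1 to 51.8 in C1, 34.2 to 56.1 in S0 and 25.4 to 38.4 in C0, and the phloem marker PP2-A12 had 98.2 to 143 CPM in S1 and 26.9 to 39.4 in C1. Of all transcripts tested, 9.81% were called higher in S1 than in C1. The xylem marker IRX3/CESA7 (Eucgr.H00189) alone had 249 to 285 CPM in S1. It was placed through the study's C1 against S1 calls, so its direction there is not independent evidence. Of the 6 epidermis markers 3 were lower and 2 higher in S1 than in C1, with a summed level of 475 to 695 CPM in S1, 356 to 643 in C1, 265 to 333 in S0 and 248 to 327 in C0, and 1 of them, a PDF1 match (Eucgr.A01963), had no read in any S1 library. In the order Katherine, Mt Isa and Petford it had 0, 1 and 1 reads in S0, and 1, 1 and 7 in C0. In C1 it had 607, 15 and 95 reads. Both PDF1 matches, CER2 and CER4 were also placed through the study's C1 against S1 calls. CER2 overlapped 4 other predicted transcripts and PP2-A12 overlapped 1, so reads could be shared with those.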

How the data were processed

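Leaf RNA of 12 bulked libraries was sequenced by the authors, who mapped reads of the seedlings to the draft genome of Eucalyptus grandis with TopHat and Bowtie, predicted transcripts with Cufflinks and used BEDTools to count reads on each. The authors deposited these raw counts without normalizing them. Versions, strand and the handling of reads that map to several places: not given in the sources used here. Of 43425 rows, 245 were identical to another and were used once. Genes were placed through the study's tables, by transcript position or by variant position. Variant position was used only for genes not placed through the study's C1 against S1 calls. Those variants were ones with allelic differences called between S0 and S1, which the paper describes as biased towards genes of high coverage.

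Counts were tested with edgeR 4.0.16 (R 4.3.3, limma 3.58.1): a minimum of 10 reads in all over the libraries fitted, TMM scaling, the quasi-likelihood F test, and Benjamini-Hochberg adjustment over all transcripts at 0.01, as 2-sided tests. SE is the absolute log2 fold change divided by the root of F, and 95% intervals use the t distribution with the test's degrees of freedom. Fits of 2 groups used their 6 libraries, and other fits all 12. The populations are the replicates. The likeness of levels used log2(CPM + 0.5) and named 2 transcripts per member, and of the pathway list the 10 with the most reads were given with values. DESeq2 1.42.0, edgeR's exact test, other scalings, no filter, a population block and leaving out libraries were alternatives. Simulated counts were run only through the fit of S1 and C1, with libraries drawn as independent. The difference of changes, the population comparisons and the ratio tests were not tested in this way. The members, lists and tests were chosen with earlier results of these data known.

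Within a population, the same seedlings were sampled for C0 and for C1, and likewise for S0 and for S1. After removal of group means, same-population libraries correlated at 0.2232 to 0.2954 between C1 and C0, 0.2317 to 0.3799 between S1 and S0, 0.0493 to 0.13 between S1 and C1, and 0.1197 to 0.1467 between S0 and C0. Library totals were 1726793 to 6951584 counts. Counting error was not set against the spread between libraries. Of the members, Eucgr.B03013 had the fewest reads at the end of the treatment (16 to 378 reads per library).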

Additional observations from a re-analysis of the deposited data

Results flagged for a closer look

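For 3 of the 6 members the change in stressed seedlings differed from the change in watered seedlings by a test of the difference itself, on the log2 scale over all 12 libraries: Eucgr.J01502 by -2.13, Eucgr.K02223 by -3.05 and the activase Eucgr.B02310 by -3.05. GLDP1 (Eucgr.C00646) differed by -2.76 (edgeR, Benjamini-Hochberg adjusted p = 5.44e-06), since it fell in stressed and rose in watered seedlings. Eucgr.K02223, Eucgr.B02310 and GLDP1 were placed through the study's table of transcripts called between C1 and S1, a contrast that this difference holds, so their differences were partly fixed by that choice and are a description, and Eucgr.J01502 is the one of the 4 that was placed without that table. Its placement, through variants with allelic differences between S0 and S1, was also a choice from these data. Without the Katherine libraries the difference for Eucgr.J01502 was -2.47 and was no longer called, as given above. Groups of 3 libraries are too small for a test of whether a single library is an outlier, so only fits that left libraries out were run.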

How the results depend on the processing

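The 6 members in 8 comparisons gave 504 values under alternatives, of which 451 kept their direction and their side of the threshold, 22 lost a call, 2 gained one and 29 changed sign. None of the 29 was called with the main settings. Of 749 values of the listed pathway genes, 715 kept both, 20 lost a call, 10 gained one and 4 changed sign. The cause of these changes was not tested.

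Scaling by library totals alone moved the median log2 fold change over all transcripts to -0.181 in S1 minus C1, 0.344 in C1 minus C0, 0.249 in S1 minus S0 and -0.13 in S0 minus C0, against -0.039, 0.047, 0.019 and 0.03 with TMM, and it then gave a changed sign for Eucgr.K02223 (-0.13) and Eucgr.B03013 (-0.04) in S0 minus C0 and for CAT2 (0.04) and the chaperonin subunit CPN60A (0.01) in S1 minus S0.

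Without 1 library, the members called in C1 minus C0 numbered 3 to 6. In S1 minus C1 the values ranged from -0.43 to 0.16 for Eucgr.J02030, -0.05 to 0.27 for transketolase and -0.37 to 0.11 for GLU1. In S0 minus C0 they ranged from -0.17 to 0.57 for Eucgr.J01502, -0.15 to 0.13 for Eucgr.K02223, -0.64 to 0.65 for Eucgr.B03013 and -0.17 to 0.07 for Eucgr.B02310. In the difference of changes, without 1 population, Eucgr.J02030 ranged from -0.70 to 0.17. The ratio differences ranged from -0.19 to 0.05 for Eucgr.K02223 to Eucgr.J01502 in C1 minus C0, -1.49 to 0.75 for Eucgr.B03013 to Eucgr.J01502 in S1 minus C1, and 0.48 to 0.63 (C1 minus C0) and 0.13 to 0.32 (S1 minus S0) for GLDP2 to Eucgr.J02030.

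Among populations, Katherine minus Petford had 0 members called with RLE scaling, with DESeq2, without C0 and without S0, and Mt Isa minus Petford had 1 with DESeq2 and without C0, S0 or S1. In Katherine minus Mt Isa, signs changed with library totals for Eucgr.J02030 (-0.04), Eucgr.B02310 (-0.06) and GLDP2 (-0.09), and for GLDP2 with RLE scaling (-0.02) and DESeq2 (-0.02). They changed without C0 or C1 for Eucgr.B03013 (-0.04 and -0.06), without S0 for Eucgr.J02030 (-0.10), Eucgr.B02310 (-0.18) and GLDP2 (-0.15), and without S1 for Eucgr.K02223 (0.02), Eucgr.J02030 (-0.03) and GLDP2 (-0.08). In Katherine minus Petford they changed without C1 for Eucgr.J02030 (0.01) and Eucgr.B02310 (0.14). In Mt Isa minus Petford they changed for Eucgr.K02223 without C0 (-0.01) or S1 (-0.22) and for Eucgr.B02310 with library totals (0.05) or without C1 (0.09).

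With population as the replicate block, 4 members were called in S1 minus C1, 5 in C1 minus C0, 6 in S1 minus S0, 0 in S0 minus C0 and 4 in the difference of changes, and the call of Eucgr.B03013 in the last was the one member call it changed. S1 and C1 of a population are different seedlings, so there the block pairs populations and not plants. In the difference of changes the block is shared by stressed and watered seedlings of a population, and does not pair plants either. Depth limits Eucgr.B03013 most, with 16 to 46 reads in 4 of the 6 libraries at the end.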
